A study of Mus musculus with 6 samples.

Results

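The subject is a set of 30 genes of the spindle, the kinetochore and the entry into mitosis, followed in mammary basal cells of mice that carry an inducible Notch1 allele. Members were chosen by symbol from a fixed list. All 30 symbols were found among the 51826 gene symbols of the count tables, and all 30 passed the filter on low counts. The cells came from mice of the SMAcreERT2/N1ICD genotype on the C57B6/N strain. This genotype joins a tamoxifen-inducible Cre recombinase, driven by the smooth muscle actin promoter, to an allele for the Notch1 intracellular domain, the active form of the receptor. One tamoxifen dose was given at postnatal day 21, and cells were taken 72 hours later at day 24. From each of 3 pools of 2 to 3 mice, GFP-positive (GFPpos) and GFP-negative (GFPneg) basal cells were sorted, which gave 3 libraries per group. All 6 libraries carry both alleles and saw the same dose, and no sorted cells without the Notch allele were analysed here. Whether a gap between the fractions stems from Notch or from the kind of cell that turned green cannot be told apart in this design.

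Mitotic genes are transcribed in a wave that peaks as cells pass from G2 into mitosis, and their transcripts are scarce in resting cells. Their promoters are kept silent in resting cells by the DREAM complex and are switched on in cycling cells by the MuvB core together with B-Myb and FoxM1. That core binds a short element called the cell cycle genes homology region (CHR). The factor NF-Y binds CCAAT boxes, which often lie upstream of the CHR. In the pubertal mammary gland, basal and luminal cells divide as the ducts grow, so that these transcripts mark the dividing share of a sorted population. In bulk RNA, fewer dividing cells and less mitotic RNA per dividing cell cannot be told apart.

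The promoter sequences show what these genes share beyond their roles. RefSeq promoter windows (GRCm38.p6, 250 bases before the start site and 50 from it onward) were at hand for 25 of the 30 genes, in 26 windows, and not for Aurkb, Ccna2, Foxm1, Kif20a and Tpx2. A CHR match (TTTGAA or TTCGAA, on either strand) lay in 76.9% of these windows, against 19.2% of all 32851 windows in the table and 13.7% of the windows of genes tested here. A CCAAT box on either strand lay in 80.8%, against 37.4% and 37.1%. Both motifs lay in 73.1%, against 7.52% and 5.59%. Windows of other mitotic genes held both in 43.9% and those of DNA replication genes in 13.9%. In 18 of the 25 genes a CHR match began within 40 bases of the start site. This distance was chosen after seeing the data. The same share over all windows was not taken, so no excess near the start site is read from it. Matches overlapped in 2 cases, a CHR with a CCAAT box in Cdca8 and 2 CCAAT boxes in Ube2c. A match describes the letters and is not evidence of binding.

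Shown first are the windows from 200 bases before the start site through its first 20 bases for the 4 genes that rose in the fit with the replicate block described below, in lower case with CHR and CCAAT matches in capitals. Mki67 (chr7:135716360-135716579, minus strand), Cenpf (chr1:189688067-189688286, minus), Top2a (chr11:99024170-99024389, minus) and Cenpe (chr3:135212363-135212582, plus) differ in their layout.
Mki67: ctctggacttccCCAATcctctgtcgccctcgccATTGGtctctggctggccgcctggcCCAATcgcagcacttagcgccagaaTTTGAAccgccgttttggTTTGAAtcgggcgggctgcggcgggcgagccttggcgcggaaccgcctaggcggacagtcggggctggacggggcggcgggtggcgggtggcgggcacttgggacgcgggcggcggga
Cenpf: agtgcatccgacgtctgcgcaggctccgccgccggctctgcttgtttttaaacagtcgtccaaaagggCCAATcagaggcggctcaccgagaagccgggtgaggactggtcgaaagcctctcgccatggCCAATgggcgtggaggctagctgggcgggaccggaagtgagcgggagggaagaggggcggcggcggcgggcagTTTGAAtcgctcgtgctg
Top2a: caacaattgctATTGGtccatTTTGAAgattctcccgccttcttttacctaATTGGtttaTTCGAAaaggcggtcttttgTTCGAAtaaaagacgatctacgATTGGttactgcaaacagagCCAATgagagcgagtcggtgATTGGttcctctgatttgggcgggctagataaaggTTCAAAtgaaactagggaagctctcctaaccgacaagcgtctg
Cenpe: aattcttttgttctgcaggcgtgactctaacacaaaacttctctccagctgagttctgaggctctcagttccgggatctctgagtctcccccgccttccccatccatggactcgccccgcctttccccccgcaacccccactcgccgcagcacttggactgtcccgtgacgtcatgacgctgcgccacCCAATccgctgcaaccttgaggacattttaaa
Top2a held 4 CHR matches and 5 CCAAT boxes in this stretch, and Mki67 held 2 and 3. Cenpf held 1 CHR match close to its start site below 2 CCAAT boxes, and Cenpe held a CCAAT box and no CHR match.

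The next windows belong to Cdk1 and its B-type cyclins, the kinase that drives entry into mitosis, and to Mad2l1, the gene with the smallest positive fold change of the set. They are Cdk1 (chr10:69352893-69353112, minus), Ccnb2 (chr9:70421535-70421754, minus), Ccnb1 (chr13:100786467-100786686, minus) and Mad2l1 (chr6:66535021-66535240, plus).
Cdk1: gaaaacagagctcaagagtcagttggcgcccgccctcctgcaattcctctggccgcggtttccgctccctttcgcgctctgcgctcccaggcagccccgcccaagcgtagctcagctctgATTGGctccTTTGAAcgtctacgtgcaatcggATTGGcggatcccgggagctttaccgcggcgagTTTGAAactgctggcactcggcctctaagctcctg
Ccnb2: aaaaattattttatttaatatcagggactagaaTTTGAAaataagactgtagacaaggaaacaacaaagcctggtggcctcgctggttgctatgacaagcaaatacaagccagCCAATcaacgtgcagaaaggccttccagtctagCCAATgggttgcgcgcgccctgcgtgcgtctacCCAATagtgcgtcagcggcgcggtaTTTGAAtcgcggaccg
Ccnb1: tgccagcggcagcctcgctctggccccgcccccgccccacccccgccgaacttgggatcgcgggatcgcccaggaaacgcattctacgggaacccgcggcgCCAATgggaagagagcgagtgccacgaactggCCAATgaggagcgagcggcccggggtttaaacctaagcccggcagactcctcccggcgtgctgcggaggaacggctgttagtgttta
Mad2l1: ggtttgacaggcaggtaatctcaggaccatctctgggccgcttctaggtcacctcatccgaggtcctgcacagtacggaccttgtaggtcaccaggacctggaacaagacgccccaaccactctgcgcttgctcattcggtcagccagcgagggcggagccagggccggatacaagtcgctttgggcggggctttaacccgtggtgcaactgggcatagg
Cdk1 held 2 matches of each motif and Ccnb2 held 2 CHR matches and 3 CCAAT boxes. Ccnb1 held 2 CCAAT boxes and no CHR match, and Mad2l1 held neither motif. Birc5, Nuf2 and Nusap1 were the other genes with neither motif in the full window, so that 4 of 25 had none. In edgeR's fit of all 6 libraries the log2 fold change was 0.96 for Mad2l1, 2.33 for Birc5 and 2.08 for Nuf2. For Nusap1 it was 2.76, the largest of the set.

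**Figure D1:**
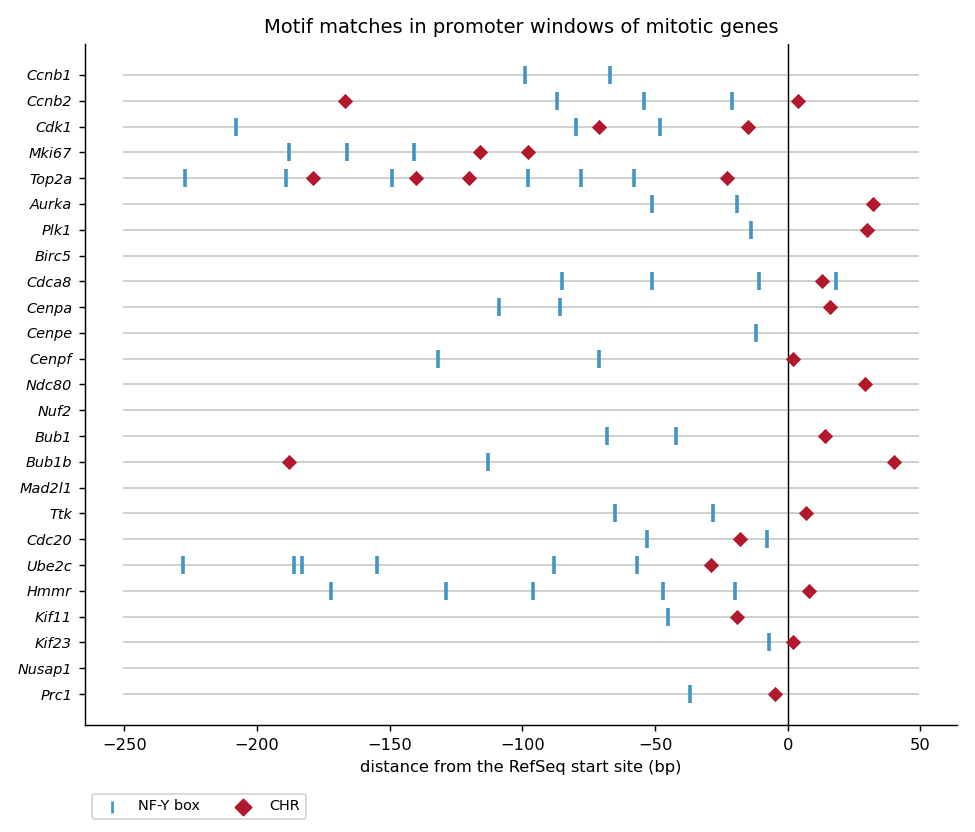
Motif matches in the RefSeq promoter windows of 25 mitotic genes, by distance from the start site in bp (x axis), with CHR matches as red diamonds and CCAAT boxes (NF-Y boxes) as blue bars; the first of 2 windows is drawn for Prc1. In 18 genes a CHR match sits within 40 bases of the start site, a distance chosen after seeing the data. CCAAT boxes lie upstream of it in most of these genes.

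The libraries were of unequal depth. GFPneg replicate 1 held 611465 gene counts and the other 5 held 9912610 to 16043492. In GFPneg replicate 1, 69.2% of counts lay in 5 abundant noncoding features, against 22.7% to 34.7% elsewhere, and one count there equals 3.28 CPM (counts scaled to the effective library size), against 0.0513 to 0.0911 CPM elsewhere. A count of 0 in that library allows up to 9.84 CPM. Across genes it correlated with the remaining libraries at 0.556 to 0.610, while those correlated with each other at 0.721 to 0.902. Notch1 reads, which do not separate the allele from the endogenous gene, stood at 506, 459 and 423 CPM in GFPpos replicates 1, 2 and 3 and at 105, 177 and 267 CPM in GFPneg, with no overlap (Notch1 log2 fold change 1.32, SE 0.41, edgeR adjusted p = 0.625). The basal markers Krt5, Krt14 and Trp63 were present in all 6 libraries.

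Mitotic transcripts stood higher in GFPpos cells, and the size of the gap depended on the pool. The log2 fold change was positive for 29 of 30 genes (57.5% of all genes tested were positive) with a median of 2.02 over the set and 0.15 over all 13873 genes tested. In 28 of 30 genes the GFPpos level was higher in all 3 pairs (21.5% of all genes), the exceptions being Ttk and Mad2l1. Of these 28, Plk1, Ccnb1 and Ndc80 had 0 counts in GFPneg replicate 1, which allows up to 9.84 CPM. Their GFPpos replicate 1 levels of 8.52, 5.07 and 9.79 CPM lie below that limit, so their direction in pair 1 is not resolved. In 21 of 30 genes each GFPpos library lay above each GFPneg library, against 9.53% of all genes, and the count was also 21 without GFPneg replicate 1 (12.6% of all genes). In edgeR's quasi-likelihood test, fitted over all genes, 0 of the 30 were called (Benjamini-Hochberg adjusted p below 0.05, which 0.0577% of genes passed as higher), while 16 had an unadjusted p below 0.05 (2.38% of all genes). Over all genes that test called 8 higher and 1 lower, against 46 and 46 with DESeq2, 2 and 1 with upper quartile factors and 5 and 1 with library size only.

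Each replicate number marks 1 pool of mice, split into both fractions. With that number as a block, 4 of the 30 genes rose (0.31% of all genes were called higher). These were Cenpf (log2 fold change 3.51, adjusted p = 3.23e-05 in edgeR), Top2a (2.96, adjusted p = 0.000201), Mki67 (2.27, adjusted p = 0.000896) and Cenpe (3.53, adjusted p = 0.00144). The median log2 fold change of the set was 2.95 in that fit. DESeq2 called 0 without the block (0.354% of all genes) and 10 with it (0.695%), limma-voom called 1 (0.389%), and edgeR called 5 with no filter on low counts (0.263%). Without both libraries of replicate 1 the block called 23 (2.52%), without those of replicate 2 it called Cenpf and Top2a (0.0368%), and without those of replicate 3 it called 0 (0.0284%), each a fit of 2 pairs. Without GFPneg replicate 1 alone, and no block, edgeR called 0 (0.412% of all genes) with a median log2 fold change of 1.85. Without GFPneg replicate 2 the median was 4.57, and Cenpf alone rose (adjusted p = 0.0345, 0.0206% of all genes). With no block, edgeR called Cenpf, Mki67 and Top2a without both libraries of replicate 2 (0.0589% of all genes) and Cenpf without those of replicate 3 (0.0853%). It called 0 without those of replicate 1 (0.274%), without GFPpos replicate 1, 2 or 3 (0.0332%, 0.0474% and 0.0136%) and without GFPneg replicate 3 (0.054%).

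**Figure D2:**
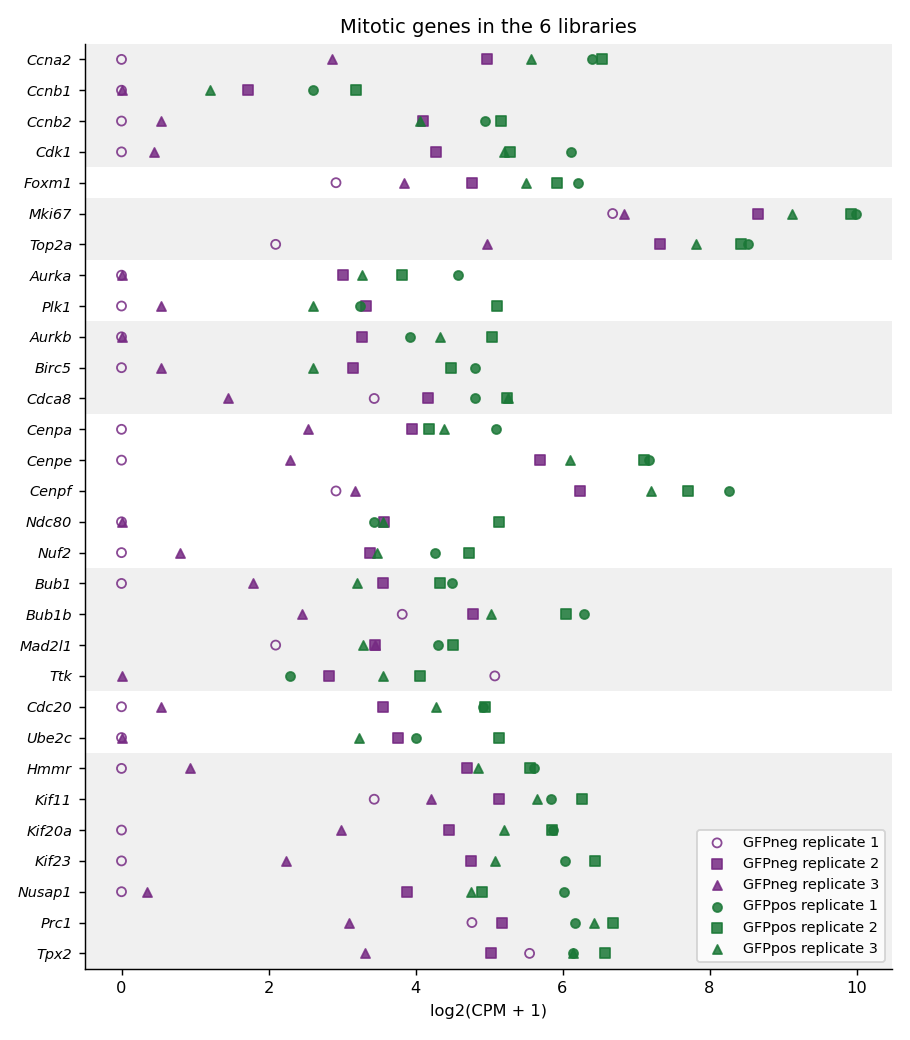
Level of each mitotic gene in each library as log2(CPM + 1) (x axis), with genes in rows and grey bands marking gene groups by role; green points are GFPpos and purple GFPneg libraries, the shape gives the replicate, and the shallow GFPneg replicate 1 is drawn hollow. Within GFPneg, replicate 2 (purple squares) is the highest library for 28 of 30 genes, a share not worked out over all genes. Of all genes tested, 49.8% had 0 counts in GFPneg replicate 1 and 5.55% in replicate 3, against 0.173% in replicate 2. In 21 genes all 3 green points lie to the right of all purple ones (9.53% of all genes).

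Ccna2 encodes cyclin A2, which acts in S phase and G2. It stood at 83.4, 91.8 and 46.5 CPM in GFPpos replicates 1, 2 and 3 and at 0, 30.4 and 6.29 CPM in GFPneg. Cdk1, which encodes the kinase that cyclins A and B activate, stood at 68.4, 37.9 and 35.9 CPM in GFPpos and at 0, 18.3 and 0.364 CPM in GFPneg. For both genes the groups did not overlap, and GFPneg replicate 2 came nearest to GFPpos. Ccnb2, a B-type cyclin gene, stood at 29.7, 34.8 and 15.7 CPM against 0, 16.2 and 0.456 CPM, so that GFPneg replicate 2 lay just above GFPpos replicate 3. Ccnb1, the other B-type cyclin gene, was the least abundant per length of the 30 genes in GFPpos, at 1.14 CPM per kb of exons (0.308 to 1.92 over libraries), against 17.5 for Ccnb2 (10.3 to 22.7). Of the 75-base stretches of Ccnb1 transcripts, 18.9% also occur in 5 other gene models, among them the pseudogene Ccnb1-ps, while Ccnb2 shares none. How reads with several alignments were handled is not given, so the Ccnb1 level is uncertain.

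Foxm1 encodes the transcription factor that works with MuvB on mitotic promoters. Its level was 72.8, 59.6 and 44.4 CPM in GFPpos and 6.56, 26.3 and 13.4 CPM in GFPneg, with no overlap between groups (log2 fold change 1.82, SE 0.63, edgeR adjusted p = 0.678). Among 19 genes of MuvB, B-Myb, E2F and pocket proteins, 0 passed edgeR's test in either direction, 2 had an unadjusted p below 0.05 as higher (2.38% of all genes), and the median log2 fold change was 0.42 (0.15 over all genes). The pair at an unadjusted p below 0.05 were E2f7, a repressor of S phase genes (log2 fold change 2.11, adjusted p = 0.744), and Rbl1, which encodes the pocket protein p107 (1.99, adjusted p = 0.843). Genes for the 3 NF-Y subunits had log2 fold changes of -0.85 (Nfya), 0.10 (Nfyb) and -0.01 (Nfyc).

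Mki67 and Top2a encode proteins of mitotic chromosomes, Ki-67, which coats them, and the topoisomerase that untangles sister DNA, and were the most abundant genes of the set per length. Mki67 (chromosome 7, 135689784 to 135716361, GENCODE M21 on mm10) stood at 1015, 969 and 554 CPM in GFPpos and at 102, 403 and 113 CPM in GFPneg. Top2a (chromosome 11, 98992943 to 99024189) stood at 367, 344 and 225 CPM in GFPpos and at 3.28, 159 and 30.2 CPM in GFPneg. In both, the lowest GFPpos library lay above the highest GFPneg library, by 1.37-fold for Mki67 and 1.41-fold for Top2a. Per kb of exons their GFPpos means were 84.1 CPM (55.0 to 101 over libraries) and 34.6 CPM (24.9 to 40.7), and Ccna2 came next at 18.1 CPM (11.4 to 22.5). The ranges of Mki67 and Top2a did not overlap, and those of Ccna2, Ccnb2 and Tpx2 did.

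The spindle kinase genes had 0 counts in the shallow GFPneg replicate 1, whose limit of 9.84 CPM lies above their levels in GFPneg replicate 2. Plk1, whose kinase acts from mitotic entry to cytokinesis, stood at 8.52, 33.5 and 5.09 CPM in GFPpos and at 0, 9.03 and 0.456 CPM in GFPneg, and the groups overlapped. Aurka, which encodes the kinase of spindle poles, stood at 22.8, 13.1 and 8.67 CPM against 0, 7.08 and 0 CPM. The chromosomal passenger complex corrects faulty attachments of chromosomes. Its kinase gene Aurkb stood at 14.2, 32.0 and 19.2 CPM against 0, 8.62 and 0 CPM, and its subunit gene Cdca8 at 26.9, 37.0 and 37.1 CPM against 9.84, 17.0 and 1.73 CPM. Birc5, which encodes the subunit survivin, stood at 26.9, 21.3 and 5.09 CPM against 0, 7.85 and 0.456 CPM, with GFPneg replicate 2 above GFPpos replicate 3.

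Among kinetochore genes, Cenpf and Cenpe, which encode large proteins of the outer kinetochore, had the highest GFPpos means per kb of exons, at 14.2 and 13.5 CPM. Cenpf (chromosome 1, 189640606 to 189688086) stood at 306, 207 and 146 CPM in GFPpos and at 6.56, 74.3 and 8.02 CPM in GFPneg. Cenpe (chromosome 3, 135212537 to 135273611), a motor that carries chromosomes to the spindle equator, stood at 144, 137 and 67.9 CPM in GFPpos and at 0, 50.7 and 3.92 CPM in GFPneg. The groups were separate in both genes. Cenpf passed the threshold in 8 of 22 alternative settings and Mki67 and Top2a in 6 each. Ndc80 and Nuf2 encode partners in the complex that grips microtubules. Ndc80 stood at 9.79, 34.0 and 10.8 CPM against 0, 10.8 and 0 CPM, and Nuf2 at 18.2, 25.6 and 10.2 CPM against 0, 9.45 and 0.729 CPM. Cenpa, the histone variant gene that marks centromeres, had the smallest gap in replicate 2 (17.2 against 14.4 CPM), with 33.2 against 0 and 19.9 against 4.83 CPM in replicates 1 and 3.

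The spindle checkpoint, which delays anaphase until all chromosomes are attached, held the members that stood apart. Bub1b, the BubR1 gene, followed the set at 77.6, 65.2 and 31.7 CPM in GFPpos and 13.1, 26.5 and 4.46 CPM in GFPneg. Bub1, a kinetochore kinase gene, stood at 21.6, 19.2 and 8.25 CPM against 0, 10.7 and 2.46 CPM, with overlap. Mad2l1, the gene for the inhibitor Mad2 (chromosome 6, 66535390 to 66547220), stood at 18.8, 21.8 and 8.77 CPM against 3.28, 9.96 and 9.93 CPM, and was the only member without a higher GFPpos level in replicate 3. Ttk, which encodes the checkpoint kinase Mps1 (chromosome 9, 83834689 to 83872389), stood at 3.90, 15.6 and 10.8 CPM against 32.8, 6.06 and 0 CPM. Its GFPneg replicate 1 value rests on 10 counts, and it was the only member with a negative log2 fold change (-0.0079, SE 1.41, edgeR adjusted p = 1). Without GFPneg replicate 1 that value was 1.73 (adjusted p = 0.846).

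Cdc20 and Ube2c encode partners of the anaphase-promoting complex (APC/C), the ubiquitin ligase that ends mitosis. Cdc20, its activator, stood at 29.2, 29.7 and 18.4 CPM in GFPpos and at 0, 10.7 and 0.456 CPM in GFPneg. Ube2c, its ubiquitin-conjugating enzyme, stood at 15.1, 34.2 and 8.41 CPM against 0, 12.6 and 0 CPM. The groups were separate for Cdc20 and overlapped for Ube2c, where GFPneg replicate 2 lay above GFPpos replicate 3. Among 15 genes of the APC/C core, which is present through the cell cycle, 9 had positive log2 fold changes (57.5% of all genes did) with a median of 0.22 (0.15 over all genes), and 0 had an unadjusted p below 0.05 in either direction in edgeR's test. DESeq2 and limma-voom called 0 of the 15 as well.

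All 7 genes of spindle motors and microtubule proteins were higher in each GFPpos library than in each GFPneg library, against 9.53% of all genes. The count was also 7 without GFPneg replicate 1 (12.6% of all genes). In that shallow library 4 of them, Kif20a, Kif23, Nusap1 and Hmmr, had 0 counts (49.8% of all genes did), and Kif11 had 3. Prc1, the antiparallel microtubule bundler of the central spindle, stood at 71.2, 102 and 85.2 CPM against 26.2, 35.2 and 7.56 CPM. Tpx2, which targets and activates Aurora A, stood at 69.8, 94.1 and 69.3 CPM against 45.9, 31.6 and 8.93 CPM. Kif11, the motor that pushes spindle poles apart, stood at 56.6, 75.6 and 49.2 CPM against 9.84, 34.1 and 17.6 CPM. These 3 genes kept some signal in each GFPneg library. Kif20a and Kif23, motors of cytokinesis, had GFPpos ranges of 35.9 to 57.3 and 33.0 to 85.5 CPM and GFPneg ranges of 0 to 20.8 and 0 to 26.1 CPM. Nusap1, a microtubule-bundling gene, stood at 64.0, 28.9 and 26.0 CPM against 0, 13.8 and 0.273 CPM. Hmmr, which encodes a spindle protein also known as a hyaluronan receptor, stood at 47.9, 46.0 and 27.8 CPM against 0, 25.1 and 0.911 CPM. In both genes GFPneg replicate 2 lay below the GFPpos libraries and far above GFPneg replicate 3. Reads of Kif20a and Cdc23, Prc1 and Rccd1, Nusap1 and Oip5, Ube2c and Tnnc2, Ccna2 and Exosc9, Cdc20 and Elovl1, and Cdca8 and 9930104L06Rik may mix, since these models overlap on opposite strands and no strand setting is given.

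Within pools the gap was even across genes in replicate 2 and uneven in replicate 3. In replicate 2, the pair with the best matched depths, all 30 genes were higher in GFPpos (47.7% of all genes were), from 1.19-fold (Cenpa) to 3.71-fold (Plk1), with a median of 2.65-fold. On the log2 scale of CPM + 1, 26 of 30 differed by more than 1 in that pair, against 6.04% of all genes. In replicate 3, 29 of 30 were higher (51.7% of all genes) and 29 differed by more than 1 (21.9% of all genes). There the ratios of the 24 genes with counts in both fractions ran from 0.883 (Mad2l1) to 98.6 (Cdk1), with a median of 9.996-fold. The upper end rests on few GFPneg counts: 4 for Cdk1 (95% exact interval 38.3-fold to 363-fold, counting error only) and 3 for Nusap1 (32.3-fold to 462-fold). The other 6 genes, Ccnb1, Aurka, Aurkb, Ndc80, Ttk and Ube2c, had 0 counts in GFPneg replicate 3 (5.55% of all genes did), where a count of 0 allows up to 0.273 CPM, so that they were at least 4.75-fold (Ccnb1) to at least 70.1-fold (Aurkb) higher in GFPpos. In replicate 1, 29 of 30 were higher (71.4% of all genes). Plk1, Ccnb1 and Ndc80 are among the 29, though their GFPpos levels lie below the limit of a GFPneg count of 0 in that pair. The median over all genes was itself 1.34 in that pair, against -0.03 and 0.05 in replicates 2 and 3, so the size of the replicate 1 gap is not read here.

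**Figure D3:**
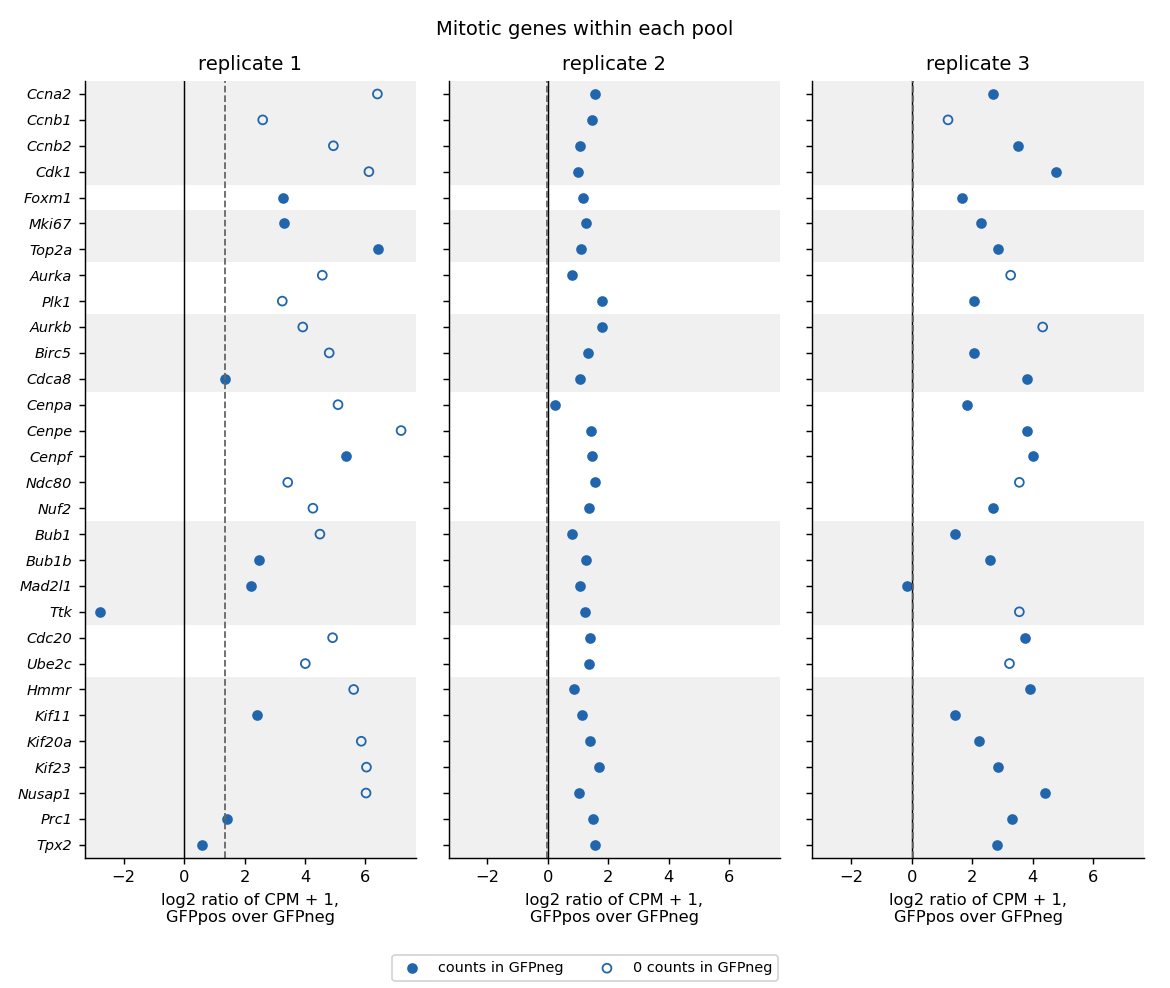
Log2 ratio of CPM + 1, GFPpos over GFPneg (x axis), for each mitotic gene within each of the 3 pools; hollow points have 0 counts in the GFPneg library, the dashed line is the median of all genes tested and the solid line is 0. Replicate 2 ratios lie in a narrow band with a median of 1.30, while replicate 3 ratios spread from -0.16 (Mad2l1) to 4.76 (Cdk1).

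The GFPneg libraries differed from each other more than the GFPpos libraries did. Summed over the 30 genes, the level was 2849, 2778 and 1665 CPM in GFPpos replicates 1, 2 and 3, a 1.71-fold range. In GFPneg it was 259, 1128 and 247 CPM, and the replicate 1 value rests on 79 counts (95% exact Poisson interval 205 to 323 CPM, counting error only). GFPneg replicate 2 therefore held 4.57 times the level of GFPneg replicate 3, a gap inside 1 group that is wider than the 2.46-fold gap between the fractions of replicate 2. The ratio of the lowest GFPpos library to GFPneg replicate 2 had a median of 1.30 over the 30 genes (0.562 to 2.19). GFPpos replicate 3 was the lowest GFPpos library for 24 of 30 genes, a share not worked out over all genes.

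The mix of mitotic transcripts in GFPneg replicate 3 also differed. As a share of its GFPpos partner, the level left in GFPneg replicate 3 was 113% for Mad2l1, 35.7% for Kif11, 30.2% for Foxm1, 29.8% for Bub1, 24.2% for Cenpa and 20.4% for Mki67. It was 1.01% for Cdk1 (interval 0.276% to 2.61%), 1.05% for Nusap1 (0.216% to 3.10%), 2.48% for Cdc20, 2.90% for Ccnb2 and 3.28% for Hmmr. The library that kept 20.4% of its partner's Mki67 thus held almost no Cdk1, Nusap1, Cdc20 or Ccnb2. In replicate 2 the same share lay between 26.9% (Plk1) and 83.9% (Cenpa). Mki67 made up 45.7% of the counts of the 30 genes in GFPneg replicate 3 (95% Wilson interval 43.8% to 47.6%), against 33.3% to 35.7% in the other 4 deep libraries. These intervals cover counting error only. GFPneg replicate 3 detected 15866 genes, against 22386 in GFPneg replicate 2 and 15322 to 17965 in GFPpos. Of all genes tested, 5.55% had 0 counts in GFPneg replicate 3 and 0.173% in GFPneg replicate 2. The shares left were not worked out over all genes. Whether a wider loss of scarce transcripts in this 1 library shaped the mix was not tested.

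GFPneg replicate 1 limits what can be said of single genes. There 19 of 30 genes had 0 counts (49.8% of all genes tested did). At the GFPpos mean level, 18 of the 19 would have been expected at 3 counts or more, and the 30 genes together at 741 counts against the 79 observed. At the level of GFPneg replicate 2 they would have been expected at 344 counts. Of the 79 counts, 63 came from Mki67, Tpx2, Ttk and Prc1. The 79 counts lie below both expectations by more than counting error. Such expected counts were not worked out over all genes. The median log2 ratio of all genes was itself 1.34 in this pair, so the size of the gap is not read.

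The mitotic program beyond the 30 genes was described with 88 further genes, of which 87 were tested. In edgeR's test 0 passed. At an unadjusted p below 0.05 the count was 23 in the higher direction (2.38% of all genes) and 0 in the lower. Positive log2 fold changes numbered 82 of 87 (57.5% of all genes), with a median of 1.72 (0.15 over all genes). DESeq2 and limma-voom called 0, DESeq2 with the block called 6 (0.695% of all genes), and edgeR with the block and without replicate 1 called 22 (2.52%). The smallest p-values belonged to Tacc3, a spindle microtubule gene (log2 fold change 2.20, adjusted p = 0.648), Aspm, a spindle pole gene (2.18, 0.667), Incenp, the scaffold gene of the chromosomal passenger complex (1.80, 0.667), and the motor gene Kif15 (2.03, 0.667). Median log2 fold changes were 1.94 for spindle and motor genes, 1.74 for cytokinesis, 1.72 for kinetochore and centromere, 1.56 for condensins and separase and 1.21 for G2 to M control. DNA replication genes, which act in S phase, had a median of 1.19. Of these, 39 of 40 were positive (57.5% of all genes) and 0 passed as higher (0.0577%). At an unadjusted p below 0.05 in edgeR's test, 4 were higher (2.38% of all genes). Among them the helicase subunit genes Mcm3 (1.38, adjusted p = 0.804) and Mcm6 (1.43, 0.839) and the polymerase genes Pole (1.58, 0.843) and Pold1 (1.83, 0.937) had the smallest p-values.

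**Figure D4:**
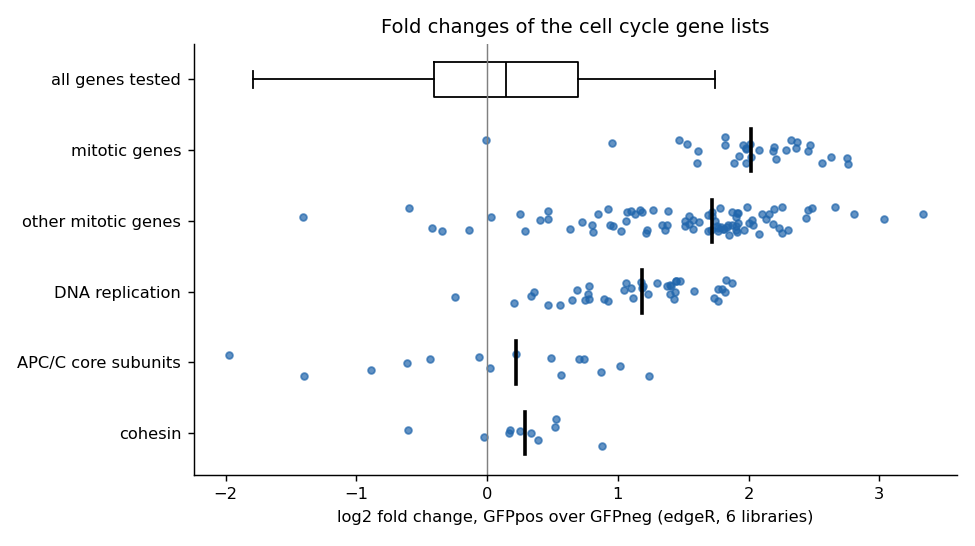
Log2 fold change of GFPpos over GFPneg from edgeR with all 6 libraries (x axis) for single genes (points) of 5 cell cycle lists, with thick bars at list medians; the box for all 13873 genes tested spans the quartiles with whiskers from the 5th to the 95th percentile. Medians are 2.02 for the 30 mitotic genes, 1.72 for other mitotic genes, 1.19 for DNA replication, 0.22 for APC/C core subunits and 0.29 for cohesin.

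Summed levels of the other lists differed less between the fractions. Levels were scaled to the counts of genes other than the 5 abundant noncoding features. The 30 mitotic genes then stood 10.9, 2.47 and 7.36 times higher in GFPpos than in GFPneg in replicates 1, 2 and 3. Other mitotic genes stood 3.69, 1.91 and 2.92 times higher, and DNA replication genes 2.58, 1.62 and 2.47 times higher. The replicate 1 ratios rest on the shallow GFPneg library, and their size is not read. For the APC/C core the ratios were 0.735, 1.04 and 1.11, and for cohesin, the ring that holds sister chromatids, 1.33, 1.22 and 1.03. On the CPM scale the mitotic ratio of replicate 3 was 6.74. The ratio of summed mitotic to DNA replication levels within a library does not depend on scaling. It was 2.12, 1.93 and 1.36 in GFPpos and 0.503, 1.27 and 0.458 in GFPneg, so that the 2 groups were separate, with GFPneg replicate 2 close to GFPpos replicate 3. The GFPneg replicate 1 ratio rests on 79 mitotic and 157 replication counts, with 19 of 30 and 26 of 40 genes at 0.

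**Figure D5:**
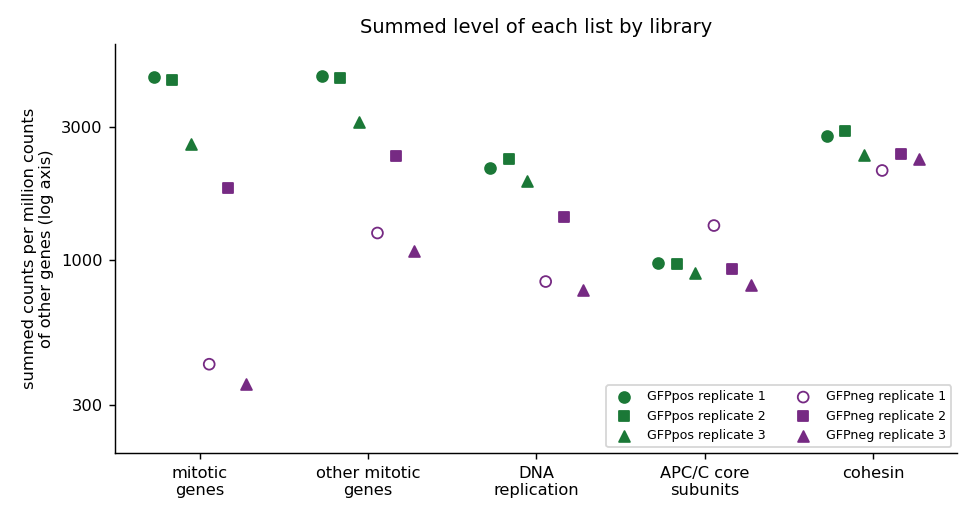
Summed counts of each list, scaled to a fixed total of the genes other than 5 abundant noncoding features (y axis, log scale) in each library; green is GFPpos, purple GFPneg, the shape gives the replicate and the shallow GFPneg replicate 1 is hollow. Mitotic genes span 357 to 4564 while APC/C core and cohesin genes stay within narrow ranges, and GFPneg replicate 2 lies nearest to GFPpos for the 3 proliferation lists.

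Markers of other cell types also moved between libraries. The summed level of 10 endothelial markers was 1081, 943 and 2690 CPM in GFPpos and 1954, 1031 and 630 CPM in GFPneg, a pair ratio of 0.553, 0.914 and 4.27. For 9 pericyte markers the ratios were 7.33, 1.68 and 3.64 (294 to 841 CPM in GFPpos and 59.0 to 231 CPM in GFPneg), with 1 to 3 of the 9 at 0 in GFPpos libraries, and the GFPneg replicate 1 sum rests on 18 counts with 7 of the 9 at 0. Luminal markers (10 genes) were higher in GFPpos in all 3 pairs, with ratios of 3.81, 1.66 and 1.25 (649 to 963 CPM in GFPpos and 252 to 521 CPM in GFPneg). In GFPneg replicate 1 their sum rests on 77 counts, with 5 of the 10 genes at 0. Basal markers (10 genes) ranged from 4824 to 6029 CPM in GFPpos and from 6836 to 11852 CPM in GFPneg. Fibroblast markers (9 genes) ranged from 346 to 443 and from 777 to 1703 CPM, and Schwann cell markers (6 genes) from 106 to 188 and from 183 to 875 CPM. Immune markers (10 genes) ranged from 14.2 to 69.0 and from 10.2 to 68.9 CPM, with pair ratios of 0.207, 2.73 and 2.79. Their GFPneg replicate 1 sum rests on 21 counts, with 7 of the 10 genes at 0. The pan-leukocyte gene Ptprc was at 0 in each GFPneg library and at 0.544 to 4.31 CPM in GFPpos. A count of 0 in GFPneg replicate 1 allows up to 9.84 CPM, so Ptprc is not read there. The part of these cells in the mitotic levels was not tested.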

How the data were processed

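RNA sequencing covered 6 libraries of sorted basal cells, grouped and numbered as labelled. For each gene symbol the authors deposited a raw count. The submitters' processing notes name TopHat2, HTSeq, cutadapt and FastQC with build mm10. Strand setting, counting mode, versions and the annotation used are not given in the sources. The 5 summary rows entered neither library sizes nor tests (no feature 28.8% to 66.4% and ambiguous 0.390% to 2.07% of the total).

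After filterByExpr, 13873 genes remained. They were tested in edgeR 4.0.16 (R 4.3.3) with TMM factors and the quasi-likelihood F test, with group as the only term and Benjamini-Hochberg adjustment over all of them. The SE is the unshrunk log2 fold change divided by the square root of F. CPM values use effective library sizes (TMM factor 0.501 for GFPneg replicate 1, 1.05 to 1.22 for the others). Pair ratios use a pseudocount of 1 CPM. Levels per length use exon lengths of GENCODE M21, whose assembly is the files' build. A count of 0 was bounded at 3 counts.

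GFPpos and GFPneg cells with the same number came from 1 pool per the design text, so the numbers pair the samples; deviations of paired libraries from their group means correlated at -0.016, 0.095 and 0.011. Mice were pooled, so p-values of fits without the block measure the spread between pools, not mice. Those of fits with the block measure how the gap within pools varied over 3 pairs, or over 2 where a pair was left out. With so few pairs they lean on dispersion shared across genes. Alternatives were the replicate block, DESeq2 1.42.0 with and without it, limma-voom (limma 3.58.1), other scaling and filters, leaving out libraries or pairs, and removal of the 5 noncoding features. The block without replicate 2 or 3, and the distance of 40 bases for CHR matches, were chosen after seeing the data. Scripts were tested on simulated data.

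The 30 members, the other lists and the settings were chosen with earlier results of these data known. All 30 members are named, and up to 4 genes with the smallest p of each other cell cycle list.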

Additional observations from a re-analysis of the deposited data

How the results depend on the processing

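Across the 22 alternative settings the median log2 fold change of the mitotic genes stayed positive, from 1.48 (without GFPneg replicate 3) to 4.57 (without GFPneg replicate 2), and 4.29 with the replicate block without both libraries of replicate 2. Upper quartile factors and library size only moved the median of all genes from 0.15 to 0.03 and 0.31, and relative to it the mitotic median was 1.87 and 1.80 (1.87 with TMM). Positive fold changes numbered 29 or 30 of 30 in each setting but 1, where a filter of 10 counts in all but 1 library left 18 genes, all 18 positive (56.8% of all genes).

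The count of mitotic genes that rose was 4 with the replicate block (0.31% of all genes) and 10 when DESeq2 used it (0.695%). It was 1 with limma-voom (0.389%) and 5 with all genes kept whatever their counts (0.263%). With the replicate block it was 23 without replicate 1 (2.52%) and 2 without replicate 2 (0.0368%). With no block, it was 0 to 3 without single libraries or pairs (0.0136% to 0.412%). Other mitotic genes that rose numbered 6 with the replicate block in DESeq2 (0.695% of all genes) and 1 without the count filter (0.263%). They numbered 22 with the replicate block without replicate 1 (2.52%) and 0 without single libraries or pairs (0.0136% to 0.412%).

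Over all genes, the counts higher and lower were 43 and 18 with the replicate block, 46 and 46 with DESeq2, 89 and 57 with DESeq2 and the block, 54 and 24 with limma-voom, 65 and 236 without the count filter, 5 and 0 with 10 counts in all but 1 library, 2 and 1 with upper quartile factors, and 5 and 1 with library size only. The replicate block gave 386 and 216, 5 and 4, and 4 and 6 without replicates 1, 2 and 3. Without single libraries or pairs they ranged from 2 to 63 higher and from 1 to 68 lower.

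Ttk, at -0.0079 in the 6 libraries, reversed to 1.44 with the replicate block, 1.53 with DESeq2 and the block, 0.69 with library size only, 3.29 with limma-voom, 0.041 with 10 counts in all but 1 library, 0.028 without the 5 noncoding features, 3.69 and 1.99 with the block without replicate 1 or 2, and 0.35, 1.73 and 2.11 without GFPpos replicate 1, GFPneg replicate 1 or both. Without single libraries or pairs it ranged from -0.97 to 2.11. The cause of these moves was not tested. The depth of GFPneg replicate 1 limits each result on single genes.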
